A study of Mus musculus with 12 samples.

Results

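Inhibition of the long noncoding RNA lncRNA8276 was compared with its control in C18-4 cells, an established line derived from mouse spermatogonial stem cells. The comparison used 6 of the 12 RNA-seq libraries of the series, which are the 3 labelled 8276KD and the 3 labelled 3NC. The 8276KD cells were transfected with a virus that inhibits lncRNA8276, and 3NC is the control group that the design text lists beside them. The other 6 libraries are 3 of 5NC, listed beside the overexpression group, and 3 of 8276OV, cells given a virus that overexpresses lncRNA8276. The labels give the strain of all groups as IRC mouse, do not spell out 3NC or 5NC, and do not say what the control cells received. Values were tested for 11360 of 17576 genes, those at 1 or more in at least 3 of the 12 libraries. The 5NC values are given for part of the genes and lists as a second reference level for the same cells. Where they are not given, the difference from 5NC can be of another size or direction.

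Values are read as FPKM, fragment counts scaled to transcript length and depth, a unit that no source used here names; FPKM can be compared between genes. Depth implied by the lowest values was 12400000 to 13400000 fragments for the 8276KD libraries and 12900000 to 13300000 for the 3NC libraries. Pearson's r of log2(value + 1) was 0.993 to 0.998 within groups, 0.986 to 0.988 between 8276KD and 3NC libraries, and 0.978 to 0.982 between 8276KD and 5NC libraries. Between 3NC and 5NC libraries it was 0.974 to 0.976, so the control groups were less alike than 8276KD was to either. The 8276KD libraries differed among themselves in base composition. For each library, the deviation of its log2(value + 1) from the mean over all 12 libraries was fitted on transcript GC content. The slope per 10 points was -0.0402 and -0.00192 in 8276KD replicates 1 and 3, below the 0.103 to 0.198 of the 6 control libraries. In 8276KD replicate 2 it was 0.184, within their range. These slopes are relative to a mean that includes the 8276OV libraries and are not trends within a library. Whether replicates were separate cultures is not stated in the labels, and the p-values then measure a spread between libraries that may be technical. The level of lncRNA8276 was not analysed here, and the labels were not checked by it.

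Spermatogonial stem cells sit on the basement membrane of the seminiferous tubule and divide in response to GDNF, FGF and other signals of the supporting cells. Stem and progenitor cells of many tissues draw on glycolysis, the breakdown of glucose to lactate in the cytosol, whose enzymes are switched on by hypoxia-inducible factors when oxygen is short. The circadian clock is a feedback loop of transcription factors that runs in nearly all cells, and its activators recognise short promoter sequences that overlap those of the hypoxia factors. Immediate early genes are transcribed within minutes of a growth factor signal and need no new protein.

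Of the 11360 genes, 4477 (39.4%) passed an adjusted p of 0.05 between 8276KD and 3NC, 2267 higher (20%) and 2210 lower (19.5%). Most of these differences were small. The median size among called genes was 0.30 on the log2(value + 1) scale, and 84.6% were under 0.5. Adding 1 makes changes of low genes look smaller. Beyond 0.5 there were 298 higher and 393 lower genes, and beyond 1 there were 28 higher (0.246%) and 64 lower (0.563%). Groups did not overlap for 49.6% of all genes. Against 5NC, 6281 genes (55.3%) were called, 2811 higher in 8276KD (24.7%) and 3470 lower (30.5%). The gene lists described next, all chosen with earlier results of these data known, are read against these shares. The share called higher also varied with the mean level over the 6 compared libraries. It was 14.4% at levels of 1 to 3, 26.6% at 30 to 100 and 34.4% over 100. The shares called lower were 20.1%, 18.4% and 17.5% in the same order. Lists of abundant genes were not set against genes of like level. Among all genes tested, the 3 8276KD values lay below all 6 control libraries in 11.3%, above all 6 in 10.8%, and between the 3NC and the 5NC values in 11.2%.

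**Figure D1:**
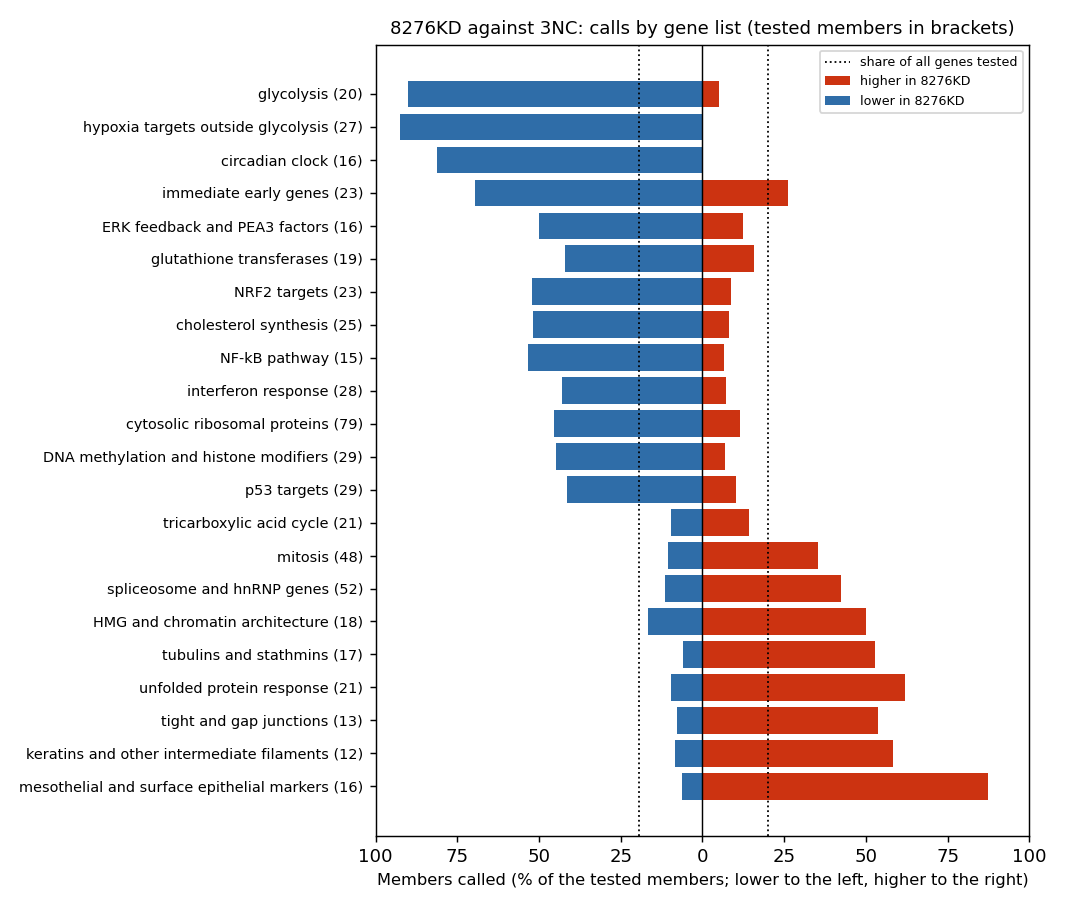
Share of the tested members of 22 gene lists called higher (right) or lower (left) in 8276KD than in 3NC, in percent, with dotted lines at the shares of all genes tested (20% and 19.5%). Glycolysis, other hypoxia targets and clock genes stand far to the left of the line, and surface epithelial, filament, junction and chaperone genes to the right.

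The genes of glycolysis were lower in 8276KD than in 3NC along almost the whole pathway. Of 20 genes tested, 18 fell and 1 rose, with a median log2 difference of -0.43 against -0.005 over all genes. Slc2a1, the glucose transporter GLUT1, stood at 53.5, 51.7 and 52.9 in the 3NC libraries and at 24.8, 27.6 and 23.7 in the 8276KD libraries. Its log2 difference was -1.03 (SE 0.0669, limma adjusted p = 1.38e-07). Hk2, the inducible hexokinase that traps glucose in the cell, went from 11.3, 12.1 and 12.5 to 5.82, 5.82 and 6.25 (log2 difference -0.90, adjusted p = 1.02e-07). In both genes all 8276KD values lay below all 3NC values.

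Further down the pathway, Aldoc and Eno2 fell more than their abundant counterparts. Aldoc, the brain-type aldolase, was at 22.9, 21.9 and 24.3 in 3NC and at 9.75, 11.2 and 9.37 in 8276KD, a log2 difference of -1.12 (adjusted p = 5.73e-08). Eno2, the neuronal enolase, fell from 33.0, 32.5 and 33.9 to 15.6, 17.8 and 16.2 (log2 difference -0.96, adjusted p = 1.86e-07). The abundant forms moved less, with Aldoa at -0.58, Eno1 at -0.34, Pkm at -0.41 and Pgk1 at -0.41, all called. Gapdh, the glyceraldehyde phosphate dehydrogenase often used as a reference gene, had the largest fall in level of all genes, from 3612, 3545 and 3655 to 2216, 2488 and 2142. Its log2 difference was -0.66 (adjusted p = 2.5e-05).

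The last steps of the pathway fell as well. Ldha, which turns pyruvate into lactate, went from 987, 959 and 987 to 643, 666 and 621 (log2 difference -0.60, SE 0.0371, adjusted p = 8.6e-08). Slc16a3, the lactate exporter MCT4, went from 139, 139.6 and 139.6 to 89.1, 106 and 91.0 (log2 difference -0.55, adjusted p = 0.000492). The exceptions were Pgam1, which was not called (-0.05, adjusted p = 0.296) except after quantile normalization (-0.10, adjusted p = 0.0484), and Pfkfb3, which makes the activator of phosphofructokinase and was higher by 0.16 (adjusted p = 0.0278). The Pfkfb3 call was lost without 3NC replicate 1 (limma adjusted p = 0.0802), 3NC replicate 3 (0.0804) or 8276KD replicate 3 (0.0906). The tricarboxylic acid cycle, which burns pyruvate in mitochondria, did not share the pattern, with 3 of 21 genes higher, 2 lower and a median of -0.02.

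Relative to 5NC, the direction was opposite. Of the 20 genes, 14 were higher in 8276KD than in 5NC and 0 were lower, with a median of 0.28. In 14 of 20 genes (70.0%) all 8276KD values lay between the 3NC and the 5NC values, and in 0 genes did they lie below both. Slc2a1 was at 16.7, 16.4 and 18.2 and Slc16a3 at 42.1, 40.9 and 40.0 in 5NC, below 8276KD in both cases.

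Most members of a list of other known targets of hypoxia-inducible factors were lower. Like all lists here, this list was chosen with earlier results of these data known. Of 27 tested, 25 fell, 0 rose and the median was -0.53. Bnip3, a mitochondrial receptor for mitophagy, stood at 112, 118 and 111 in 3NC and at 53, 44.2 and 50.3 in 8276KD (log2 difference -1.2, SE 0.069, adjusted p = 4.95e-08). Egln3, a prolyl hydroxylase that marks the hypoxia factors for decay, went from 35.3, 33.7 and 33.1 to 16.7, 17.4 and 15.3 (-1.01, adjusted p = 1.38e-07). Pdk1, the kinase that keeps pyruvate out of the mitochondrion, went from 8.2, 8.06 and 8.81 to 3.96, 3.88 and 4.58 (-0.87, adjusted p = 9.79e-07). The 8276KD and 3NC values of these 3 genes did not overlap.

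Falls of similar size were seen for Ak4, a mitochondrial adenylate kinase (-1.03), Nos2, the inducible nitric oxide synthase (-1.05, at 0.28, 0.31 and 0.32 in 8276KD), Selenbp1, a selenium-binding protein (-1.25), Car12, a carbonic anhydrase of the cell surface (-0.92), Mxi1, a MYC antagonist (-0.88) and Ndrg1 (-0.86). Vegfa, the growth factor for vessels, fell by 0.47. Pgm1 and Stc2 were tested and not called (-0.03 and -0.21), and Car9 and Adm stayed under the filter.

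Here the members parted in their relation to 5NC, with 13 higher and 10 lower than in 5NC (median 0.13). In 10 of 27 genes (37.0%) the 8276KD values lay below all 6 control libraries, and in 12 (44.4%) between the controls. Car12 belonged to the first kind, at 2.02, 2.31 and 1.86 in 3NC, 1.18, 1.13 and 1.31 in 5NC and 0.59, 0.51 and 0.76 in 8276KD. So did Mxi1, at 15.9, 15.4 and 16.8 in 5NC against 13.6, 12.8 and 13.4 in 8276KD (log2 difference from 5NC -0.25, adjusted p = 0.00309), and Pdk1 (-0.28, adjusted p = 0.00444). Ndrg1, Vegfa, Ddit4 and Gys1 were also lower than in 5NC, by 0.27, 0.53, 0.43 and 0.50. Bnip3 belonged to the second kind, at 20.9, 22.3 and 20.8 in 5NC.

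**Figure D2:**
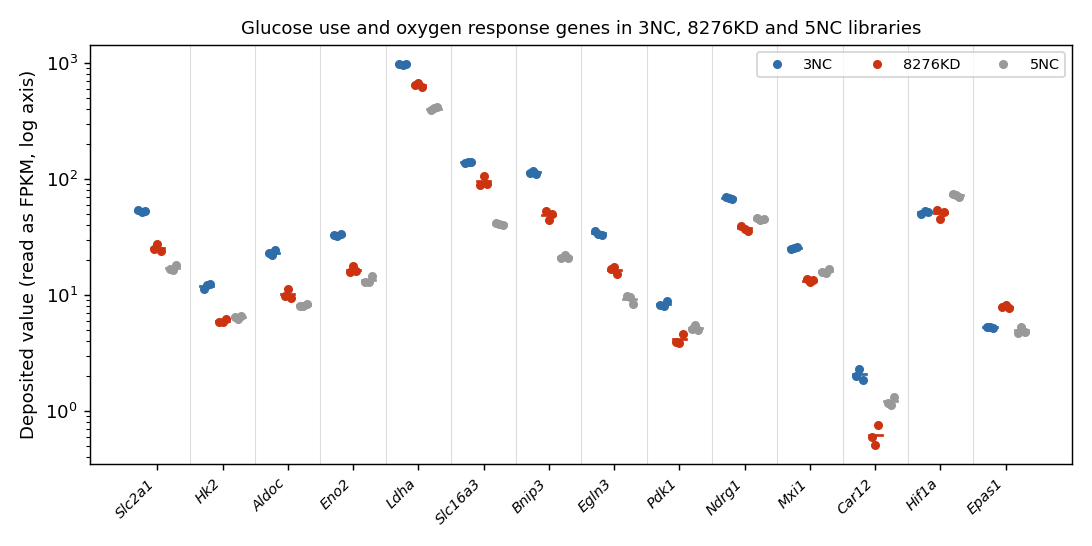
Deposited values (log axis) of 14 genes of glucose use and oxygen response in each library of 3NC, 8276KD and 5NC, with a line at each group mean. The 8276KD points lie under the 3NC points for the first 12 genes, while Hif1a overlaps 3NC and Epas1 lies above both controls.

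The transcripts of the factors themselves moved in different directions. Hif1a, which encodes the oxygen-labile subunit HIF-1 alpha, was at 50.3, 52.7 and 51.8 in 3NC and 54.3, 45.4 and 52.3 in 8276KD, which overlapped (log2 difference -0.03, adjusted p = 0.757). Epas1, which encodes HIF-2 alpha, was higher, at 7.83, 8.12 and 7.78 against 5.31, 5.24 and 5.17 in 3NC and 4.72, 5.34 and 4.78 in 5NC (log2 difference from 3NC 0.51, adjusted p = 2.24e-05). Arnt, the shared partner subunit, fell by 0.30 (adjusted p = 0.000179), with values of 17.6, 16.6 and 17.5 in 8276KD, below all control libraries. Arnt2 rose by 0.32 and Hif1an, which blocks the activation domain, by 0.15. The Hif1an call was lost without 3NC replicate 1 (limma adjusted p = 0.0829) or 3 (0.0703), or 8276KD replicate 1 (0.0738) or 3 (0.0627). Vhl and Egln2 were not called (0.01 and 0.11). HIF proteins are controlled mainly by their decay, which these transcript values do not show.

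Hypoxia factors bind DNA at the core letters ACGTG, and the 250 bases before the RefSeq start sites of 3 strongly lowered members are shown with every ACGTG, on either strand, in capitals (GRCm38.p6, each read on the strand of its gene).
Slc2a1, chr4:119108495-119108744, plus strand: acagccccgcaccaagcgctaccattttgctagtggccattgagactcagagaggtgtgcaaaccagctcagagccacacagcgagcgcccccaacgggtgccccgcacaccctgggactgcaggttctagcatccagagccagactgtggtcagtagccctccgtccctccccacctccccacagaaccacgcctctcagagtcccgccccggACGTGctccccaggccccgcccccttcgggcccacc
Ldha, chr7:46845554-46845803, plus strand: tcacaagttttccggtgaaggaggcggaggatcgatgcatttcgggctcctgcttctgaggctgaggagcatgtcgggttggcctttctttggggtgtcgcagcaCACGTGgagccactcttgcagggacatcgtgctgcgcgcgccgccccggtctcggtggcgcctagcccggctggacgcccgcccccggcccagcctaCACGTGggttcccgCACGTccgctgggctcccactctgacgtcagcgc
Bnip3, chr7:138909507-138909756, minus strand: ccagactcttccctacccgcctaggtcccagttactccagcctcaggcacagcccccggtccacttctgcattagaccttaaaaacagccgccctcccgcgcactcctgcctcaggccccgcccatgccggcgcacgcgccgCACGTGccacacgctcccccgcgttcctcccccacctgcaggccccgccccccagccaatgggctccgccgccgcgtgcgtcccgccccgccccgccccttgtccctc
The window of Slc2a1 held 1 match, that of Ldha 5 and that of Bnip3 2, where a match on the opposite strand that overlaps another is counted on its own. For Ldha the first of 2 listed starts is shown. Promoters were matched for 20 of the 20 glycolysis genes and 22 of the 27 other targets, and ACGTG was found for 10 (50%) and 15 (68.2%) of them. The share was 25.7% among the 9139 tested genes with a listed promoter, 28.3% among genes called lower and 24.7% among those called higher, and 16.6% of all 32851 listed promoters of this length. A match is a description of the letters and not a binding site. The lists hold genes known to answer to these factors, so their high shares describe the lists and not the knockdown.

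Circadian clock genes were mostly lower as well. Of 16 tested, 13 were lower in 8276KD than in 3NC, 0 were higher and the median was -0.37. In 10 of 16 (62.5%) the 8276KD values lay below all 6 control libraries, against 11.3% of all genes. Ciart, a repressor of the clock activators, was at 5.07, 3.95 and 4.80 in 3NC, at 10.9, 12.8 and 12.9 in 5NC and at 1.80, 1.94 and 1.61 in 8276KD. Its log2 difference was -1.01 from 3NC (SE 0.0998, adjusted p = 5.63e-06) and -2.24 from 5NC (adjusted p = 1.64e-09). Per2, a core repressor of the loop, was at 2.32, 2.20 and 2.25 in 3NC, 1.86, 1.94 and 2.05 in 5NC and 1.01, 1.01 and 0.90 in 8276KD (-0.72 from 3NC, adjusted p = 5.4e-06). All Per2 values are low, and the 3 groups did not overlap.

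The clock output factors Dbp, Tef and Nfil3 were lower than in both controls. Dbp, a PAR bZIP activator, went from 4.56, 4.58 and 5.11 in 3NC to 1.71, 2.41 and 2.06 in 8276KD (-0.91, adjusted p = 6.9e-05; -0.41 from 5NC, adjusted p = 0.012). Its relative Tef fell by 0.39 and Nfil3, which competes for the same sites as a repressor, by 0.44, and both were below 5NC as well, by 0.25 and 0.96. Bhlhe41, a basic helix-loop-helix repressor, went from 2.56, 2.52 and 2.31 to 0.76, 0.79 and 0.66 (-1, adjusted p = 2.08e-07). Nr1d1, the nuclear receptor REV-ERB alpha, fell by 0.82 from 3NC and was the only member higher than in 5NC (0.36, adjusted p = 0.00647). The activators Clock and Arntl, which drive the loop, were not called (0.10 and -0.17), nor was Cry1 (-0.06). Arntl lay near the threshold (limma adjusted p = 0.0568) and was called lower under 4 alternatives (0.0220 to 0.0480). Without 8276KD replicate 2, Clock was called higher, by 0.21 (limma adjusted p = 0.0278).

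Clock activators bind the palindrome CACGTG, which holds ACGTG on both strands, and the windows of the 2 members with the largest falls among those with this palindrome are shown with it in capitals.
Ciart, chr3:95882229-95882478, minus strand: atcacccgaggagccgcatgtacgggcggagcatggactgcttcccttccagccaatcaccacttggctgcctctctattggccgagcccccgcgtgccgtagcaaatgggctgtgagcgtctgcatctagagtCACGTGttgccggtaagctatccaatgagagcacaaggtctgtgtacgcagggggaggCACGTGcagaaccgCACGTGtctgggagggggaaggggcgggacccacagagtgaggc
Bhlhe41, chr6:145865421-145865670, minus strand: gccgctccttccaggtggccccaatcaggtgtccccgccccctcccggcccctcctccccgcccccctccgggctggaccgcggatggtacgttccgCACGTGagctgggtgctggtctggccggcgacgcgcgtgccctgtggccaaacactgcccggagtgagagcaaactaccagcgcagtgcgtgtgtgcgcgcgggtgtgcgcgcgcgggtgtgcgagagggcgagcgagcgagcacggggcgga
Ciart held 3 matches and Bhlhe41 held 1. Of 13 clock genes with a listed promoter, 5 (38.5%) had the palindrome in this window, against 10.1% of the tested genes with a promoter, 10.1% of the genes called lower, 11.5% of those called higher and 6.02% of all listed promoters. The share among clock genes, too, describes the list and not the knockdown.

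**Figure D3:**
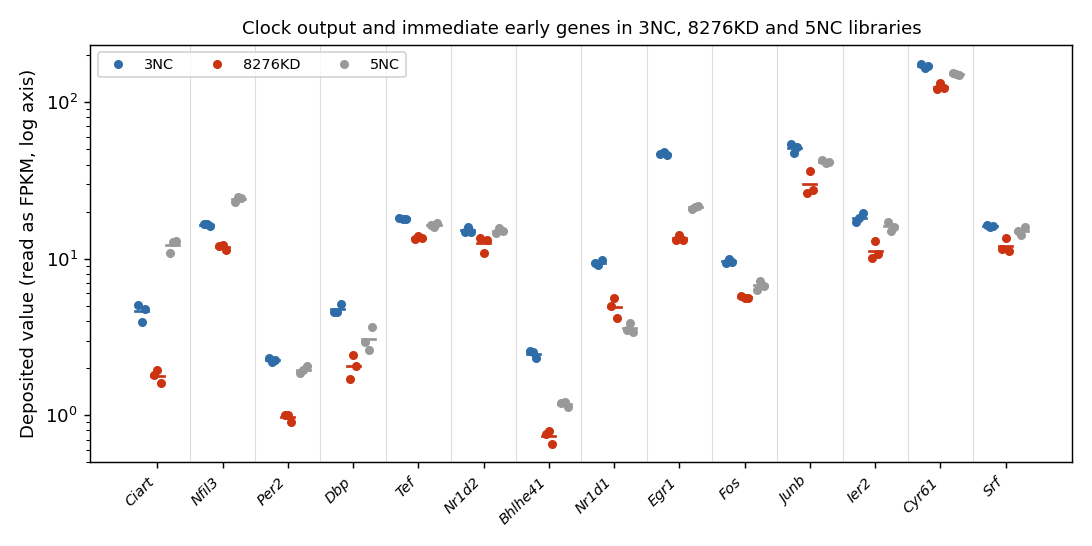
Deposited values (log axis) of 8 clock genes and 6 immediate early genes in each library of 3NC, 8276KD and 5NC, with a line at each group mean. Nr1d1 alone has its 5NC points under the 8276KD points, and the 8276KD points of Ciart, Per2, Egr1, Fos and Ier2 lie under both controls.

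More immediate early genes fell than rose. Of 23 immediate early genes tested, 16 fell and 6 rose (median -0.26), and in 10 (43.5%) the 8276KD values lay below all 6 control libraries. Egr1, a zinc finger factor induced by serum, was at 46.4, 48.2 and 45.7 in 3NC, 20.8, 21.6 and 21.7 in 5NC and 13.1, 14.3 and 13.2 in 8276KD. Its log2 difference from 3NC was -1.72 (SE 0.0515, adjusted p = 9.28e-11). Fos went from 9.46, 9.97 and 9.58 to 5.75, 5.62 and 5.65 (-0.68, adjusted p = 1.07e-06), Junb fell by 0.76, Ier2 by 0.66 and Srf, the serum response factor itself, by 0.40. Against 5NC these 4 were lower too, at -0.22, -0.47, -0.48 and -0.30. The Kruppel-like factors went the other way, with Klf2 higher by 0.63, Klf4 by 0.59 and Klf6 by 0.58.

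Of 16 genes of ERK feedback and the PEA3 group of ETS factors, 8 fell and 2 rose from 3NC (median -0.26), and 3 were lower and 6 higher than in 5NC. Dusp4, a phosphatase that switches ERK off, went from 23.1, 23.3 and 25.4 to 12.3, 12.4 and 11.5 (-0.93, adjusted p = 8.66e-07). Etv4 went from 32.1, 30.2 and 31.6 to 15.2, 17.4 and 15.9 (-0.92, adjusted p = 2.43e-07), but was far lower in 5NC, at 3.40, 3.73 and 3.63. In this list 8 of 16 genes (50%) lay between the controls and 1 below both. Among ErbB receptors and their ligands 6 of 10 fell and 2 rose, and 4 fell without 3NC replicate 1 or 2 or 8276KD replicate 2 and after each other scaling of the libraries. Egfr fell from 8.04, 9.76 and 8.26 to 5.30, 4.18 and 5.42 (-0.70, adjusted p = 5.29e-05) and was also below 5NC (-0.58). The ligands Areg and Hbegf fell by 0.96 and 0.38 and were above 5NC, and the receptor Erbb3 was higher by 0.31.

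Glutathione transferases included the largest fitted fall of all genes. Gsta1, a glutathione transferase of the alpha class, stood at 63.5, 65.0 and 67.9 in 3NC, 20.2, 17.1 and 20.8 in 5NC and 11.2, 8.49 and 9.19 in 8276KD. Its log2 difference from 3NC was -2.65 (SE 0.0927, adjusted p = 5.22e-10). Gsta4, which clears products of lipid oxidation, stood at 708, 701 and 683 in 3NC, 335, 355 and 361 in 5NC and 197, 186 and 185 in 8276KD (-1.88, adjusted p = 3.72e-12). Gsta1 has near-identical copies in its class, so the share of reads given to it is uncertain. Over the family, 8 of 19 genes fell and 3 rose, with Mgst2 at -1.2 and Gstt1 at -0.85 the next largest falls.

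Of 23 targets of NRF2, a transcription factor of the response to oxidants and electrophiles, 12 fell and 2 rose (median -0.18). Ugt1a6a, a glucuronosyl transferase, fell by 1.31, Abcc1, an export pump, by 0.70 and Hmox1, haem oxygenase, by 0.43, while Prdx1 and Txn1 of the thioredoxin system rose by 0.36 and 0.32. Against 5NC the list ran the other way, with 13 higher and 5 lower (median 0.44). Xdh, the xanthine dehydrogenase, was outside the list and fell against both controls, at 8.25, 8.61 and 7.38 in 3NC, 7.62, 7.45 and 7.87 in 5NC and 2.96, 2.24 and 2.25 in 8276KD (-1.39, adjusted p = 7.15e-08).

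For lipid and amino acid metabolism the direction or size differed with the control. Of 25 genes of cholesterol synthesis and uptake, 13 fell from 3NC and 2 rose (median -0.16), while 15 were higher and 3 lower than in 5NC (median 0.43). Idi1, an isomerase of the pathway, was above both, by 0.42 and 0.98. Of 33 ATF4 targets of the amino acid starvation response 15 fell and 3 rose from 3NC (median -0.13), and 31 were lower and 0 higher than in 5NC (median -0.85).

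Chaperones of the endoplasmic reticulum rose against both controls. Of 21 genes of the unfolded protein response 13 rose and 2 fell from 3NC (median 0.17), and 17 were higher and 2 lower than in 5NC (median 0.45). In 13 of 21 (61.9%) the 8276KD values lay above all 6 control libraries, against 10.8% of all genes. Calr, the calcium-binding chaperone calreticulin, stood at 1133, 1159 and 1146 in 3NC, 1049, 1062 and 1049 in 5NC and 1479, 1542 and 1535 in 8276KD (0.41 from 3NC, SE 0.0335, adjusted p = 1.08e-06). Hspa5, the chaperone BiP, went from 1002, 1034 and 996 in 3NC to 1269, 1167 and 1267 in 8276KD (0.29, adjusted p = 0.000112), against 499, 523 and 503 in 5NC. Edem1, which hands misfolded glycoproteins to degradation, rose by 0.47 and Pdia3, Pdia6 and Dnajb11 by 0.34, 0.30 and 0.33. The sensor kinase Ern1 fell from 10, 10.2 and 10.8 to 6.46, 5.93 and 6.33 (-0.65, adjusted p = 1.59e-05), and its target Xbp1 was not called (-0.01).

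Marker genes of the mesothelium and surface epithelium, the cells that cover the gonad and other organs, were mostly higher than in 3NC. Of 16 such markers, all of them tested, 14 rose, 1 fell and the median was 0.56. Their summed level was 891.6 to 907.5 in the 3NC libraries and 1248 to 1367 in the 8276KD libraries. In bulk RNA more cells of a type and more RNA per cell cannot be told apart. Upk3b, a uroplakin, stood at 242, 233 and 244 in 3NC and 367, 412 and 381 in 8276KD (0.69, adjusted p = 9.79e-07). Podxl, an anti-adhesive sialomucin, went from 78.9, 80 and 77.8 to 141, 134 and 143 (0.81, adjusted p = 8.76e-09), and Upk1b from 54.6, 54.5 and 53.8 to 95.3, 91.9 and 96.7 (0.79). In 5NC these 3 were higher still, at 782, 789 and 804, 161, 165 and 169 and 115, 108 and 110.4.

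Over the list 11 of 16 genes (68.8%) lay between the controls and 4 (25%) above both. The 4 were Wt1, the transcription factor of gonad and mesothelium (0.27 from 3NC and 0.21 from 5NC), and the keratins Krt8 (0.60 and 0.42), Krt18 (0.24 and 0.39) and Krt19 (0.40 and 0.64). Msln, the mesothelin gene, was not called (0.11, adjusted p = 0.148), and Mgarp fell by 0.33. The Krt18 call was lost without 3NC replicate 3 (limma adjusted p = 0.0600) or 8276KD replicate 3 (0.0536).

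**Figure D4:**
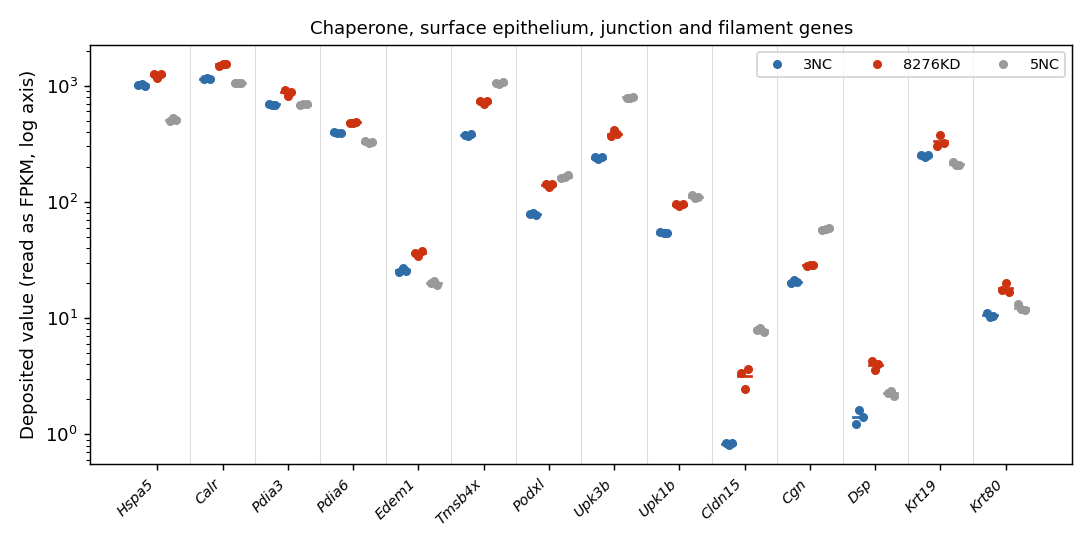
Deposited values (log axis) of 14 chaperone, surface epithelium, junction and filament genes in each library of 3NC, 8276KD and 5NC, with a line at each group mean. The 8276KD points lie above the 3NC points for all 14 genes, and above 5NC as well for the chaperones, Dsp, Krt19 and Krt80.

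Adhesion genes moved in both directions. Of 13 genes of tight and gap junctions 7 rose and 1 fell (median 0.28). Cldn15, a claudin, went from 0.84, 0.81 and 0.84 to 3.40, 2.46 and 3.68 (1.18, adjusted p = 1.58e-06), and the junction genes Cgn and Pard6b rose by 0.45 and 0.46. Gja1, the connexin 43 gene, went from 20.9, 20.3 and 19.8 to 27.1, 25.8 and 27.2 (0.38, adjusted p = 9.22e-05) and was above 5NC too (0.65). Against 5NC the list had 3 genes higher and 5 lower.

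Among 9 desmosome and plakin genes 4 rose and 3 fell. Dsp, the desmoplakin that ties desmosomes to keratin, went from 1.22, 1.62 and 1.40 to 4.28, 3.59 and 4.00, above the 5NC values of 2.27, 2.36 and 2.16 (1.04 from 3NC, adjusted p = 1.06e-06). Jup rose by 0.53 and Perp by 0.58, and Pkp1 fell by 0.73. Of 13 cadherins and catenins 3 rose and 5 fell, among them Pcdh19 at 0.71, Cdh11 at -0.44 and Cdh3, the P-cadherin gene, at -0.27 from 3NC and -1.97 from 5NC. Of 9 integrins 2 rose and 4 fell. Itgb7 fell from 3.11, 2.69 and 2.47 to 0.67, 0.67 and 0.63 (-1.18, adjusted p = 9.79e-07), while Itgb3 rose by 0.42 and Itgb1 by 0.16. The Itgb1 call was lost without 3NC replicate 3 (limma adjusted p = 0.0773), 8276KD replicate 1 (0.0781) or 8276KD replicate 3 (0.0784).

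Of 21 other surface adhesion molecules 7 rose and 6 fell. Mcam went from 45.7, 43.9 and 44.9 to 66.8, 67.1 and 65.7 (0.56, adjusted p = 4.39e-07) and was above 5NC (0.70). Bcam, a laminin receptor, rose by 0.62 and the tight junction molecule F11r by 0.32. Ncam1 fell from 11.1, 10.6 and 11.2 to 7.78, 7.61 and 6.97 (-0.50, adjusted p = 1.06e-05), Cd44 fell by 0.37 and Cd47, the signal against engulfment, by 0.37.

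Filament genes were mostly higher. Of 12 keratins and other intermediate filaments 7 rose and 1 fell (median 0.24), and 6 (50%) lay above all 6 control libraries. Lmnb1, the nuclear lamin B1, went from 70.9, 69.9 and 69.0 to 112, 118 and 116 (0.72, adjusted p = 6.22e-08), and Krt80 rose by 0.72. Vim, the filament of mesenchyme, was the one that fell, from 553, 520.1 and 534 to 419, 466 and 438 (-0.28, adjusted p = 0.000493). Of 17 tubulins and stathmins 9 rose and 1 fell (median 0.15). Stmn4, which destabilises microtubules, went from 0.66, 0.39 and 0.56 to 3.17, 3.37 and 2.74 and was at 0.35, 0.42 and 0.32 in 5NC (1.41 from 3NC, adjusted p = 1.5e-07). Tmsb4x, thymosin beta 4, which holds actin monomers, went from 379, 366 and 382 to 729.6, 690.4 and 732 (0.93, SE 0.0362, adjusted p = 1.5e-09), and stood higher in 5NC, at 1047, 1040.3 and 1084. Actb rose by 0.45 from 3NC and 0.44 from 5NC.

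Genes of the extracellular matrix moved both ways. Of 19 matrix proteases and inhibitors 9 rose and 6 fell, and 11 (57.9%) lay between the controls. Adamts5, an aggrecan-cleaving protease, went from 4.92, 5.03 and 4.55 to 11.2, 10.6 and 11.2 (1.04, adjusted p = 4.08e-08). Timp1, an inhibitor of matrix metalloproteases, fell by 0.64. Of 22 other matrix proteins 8 rose and 8 fell. Spp1, osteopontin, went from 187, 185 and 172 to 49.8, 47.6 and 52.7 (-1.84, adjusted p = 2.82e-11) and its difference from 5NC was not called (-0.01, adjusted p = 0.865). Lox, the collagen cross-linker, Fbln2 and Fn1, fibronectin, were lower than in both controls, at -0.50, -0.34 and -0.43 from 3NC and -1.04, -1.31 and -0.34 from 5NC.

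Of 48 genes of mitosis 17 rose and 5 fell from 3NC (median 0.09). Against 5NC 38 were higher and 2 lower (median 0.33). From 3NC, 11 rose after quantile normalization and 9 fell after the GC correction. In 17 (35.4%) the 8276KD values lay above all 6 control libraries. The inhibitors of G1 kinases Cdkn2b and Cdkn2a were lower than in both controls. Cdkn2b went from 17.1, 17.1 and 18.8 to 8.56, 10.5 and 9.89 (-0.81, adjusted p = 4.2e-06) with 14.4, 12.5 and 13.1 in 5NC, and Cdkn2a from 119, 122 and 131 to 70.1, 90.9 and 82.5 (-0.61, adjusted p = 6.94e-05). Cdkn1a, p21, fell by 0.62 from 3NC and was above 5NC by 1.09. Myc fell by 0.38 and Mycn, its relative, rose by 0.66. Of 42 genes of DNA replication 11 rose and 12 fell, and of 29 p53 targets 3 rose and 12 fell, with 1 rising without 3NC replicate 3 or 8276KD replicate 3.

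High mobility group genes, which shape chromatin, divided by family. Hmga2, of the family that binds AT-rich DNA, went from 12.8, 12.6 and 13.2 to 6.54, 5.46 and 5.67 (-1.01, adjusted p = 2.08e-07), and Hmga1 fell by 1.41, a gene that shares reads with a copy. The nucleosome-binding Hmgn5 rose from 21.8, 22.6 and 21.7 to 47.3, 52.9 and 53.6 (1.18, adjusted p = 7.15e-08), and Hmgb1, Hmgb2, Hmgb3 and Hmgn2 rose by 0.36, 0.51, 0.40 and 0.40. Over the list 9 of 18 rose and 3 fell. Among 29 writers and erasers of chromatin marks 13 fell and 2 rose, with the demethylase genes Kdm4b at -0.80 and Kdm3a at -0.62 and the maintenance methylase Dnmt1 at -0.30.

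Counts of immune genes differed by group. Of 15 NF-kB pathway genes 8 fell and 1 rose, and of 28 interferon-stimulated genes 12 fell and 2 rose, with 10 (35.7%) below all control libraries. Ifitm3, an antiviral membrane protein, went from 204, 188 and 203 to 112, 136 and 111 (-0.73, adjusted p = 1.42e-05) with 154, 160.2 and 171 in 5NC. Irf7 and Oasl2 fell by 0.45 and 0.40 and were lower than in 5NC too (-0.66 and -0.51). Of 19 chemokines and cytokines 5 rose and 6 fell, among the latter Ccl5 (-1.09, adjusted p = 9.69e-08). Of 13 genes of antigen presentation 2 rose and 1 fell.

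Among the machines of gene expression the balance moved with the scaling of the libraries. Of 79 cytosolic ribosomal protein genes 36 fell and 9 rose (median -0.11), and after quantile normalization 23 fell and 15 rose (median -0.05). Leaving out 1 library gave 24 (without 8276KD replicate 1) to 42 (without 8276KD replicate 2) that fell, and many of these genes have near copies that share reads. Against 5NC 40 were higher and 18 lower. Of 52 spliceosome and hnRNP genes 22 rose and 6 fell from 3NC, against 16 and 11 after quantile normalization, where the median went from 0.04 to -0.01, and 22 and 13 without 8276KD replicate 2. Of 77 mitochondrial ribosomal protein genes 19 rose and 8 fell, with 4 or 5 falling without 3NC replicate 1 or 3 or 8276KD replicate 1 or 3. Of 40 subunits of respiratory complexes III to V 15 rose and 3 fell, and after quantile normalization 6 rose. Without 8276KD replicate 2, 7 of the 40 fell, and 8 rose without 3NC replicate 1 and 9 without 8276KD replicate 3.

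Markers of spermatogonial stem cells were checked against the label of the line. Of 26 with values, 15 stayed below 1 in all 12 libraries, among them the GDNF receptor genes Gfra1 and Ret and the stem cell factor genes Zbtb16 and Bcl6b, and Ret, Zbtb16, Thy1 and Bcl6b were listed at 0 in some libraries. Of the 11 tested 4 rose and 4 fell. Uchl1, a ubiquitin hydrolase used to stain spermatogonia, went from 73.0, 76.3 and 82.1 to 119, 139 and 118 (0.69, adjusted p = 6.33e-06) with 93.1, 91.1 and 89.2 in 5NC. Eomes, a T-box factor of some stem cells, went from 1.25, 1.25 and 1.41 to 2.58, 2.21 and 2.17 (0.53, adjusted p = 0.00064). Pou3f1 was higher than in 3NC by 1.18 and lower than in 5NC by 0.25. The 4 that fell were the ETS factor gene Etv5 (-0.80) and the surface marker genes Itga6 (-0.43), Epcam (-0.29) and Cd9 (-0.24), of which Etv5 and Cd9 were above 5NC (0.31 and 0.48). Of 24 genes of later germ cells 19 stayed below 1 in all libraries and 4 were tested, of which 1 rose, the piRNA gene Piwil2 (0.73).

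Markers of other testis cells were few. Of 16 Sertoli cell markers with values, 9 stayed below 1 in all libraries, Sox9 and Amh among them, and of 7 tested 4 rose and 2 fell. Their summed level was 74.48 to 80.57 in 8276KD and 64.78 to 66.87 in 3NC, mostly from Wt1, which is also in the surface epithelial list. Of 7 Leydig, 11 myoid, 8 macrophage and 7 endothelial markers in the table, 4, 4, 6 and 6 stayed below 1 in all libraries. Summed levels were 12.33 to 13.45 against 12.30 to 14.00 for Leydig markers, 123.1 to 141.4 against 137.5 to 145.1 for myoid markers, 3.78 to 4.45 against 5.70 to 7.28 for macrophage markers and 7.49 to 8.99 against 7.51 to 8.38 for endothelial markers, 8276KD first. The part of these cell types in the results above was not tested.

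Some of the largest single changes lay outside the lists described so far, with 8276KD values beyond both controls. Alpl, an alkaline phosphatase of primitive germ and bone cells, was at 4.50, 4.61 and 5.98 in 3NC, 5.42, 4.69 and 5.47 in 5NC and 1.26, 1.75 and 1.2 in 8276KD (-1.33 from 3NC, adjusted p = 1.47e-06). Serpinf1, the secreted factor PEDF, was at 51.1, 51.0 and 50.9, 43.8, 40.3 and 40.5 and 18.6, 21.0 and 19.2 in the same order (-1.34, adjusted p = 8.27e-09). Syt7, a calcium sensor of exocytosis, was at 25.9, 24.9 and 26.6, 18.1, 19.6 and 19.2 and 8.75, 9.56 and 8.61 (-1.43, adjusted p = 2.55e-09). All 3 genes had 8276KD values below every control value.

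Rises of this kind were Ms4a4d, a membrane protein gene, from 2.86, 3.18 and 2.67 in 3NC and 1.10, 1.40 and 1.34 in 5NC to 8.50, 8.15 and 7.62 (1.22 from 3NC, adjusted p = 2.34e-06), and Papss2, which makes the sulfate donor for proteoglycans, from 5.06, 5.05 and 4.67 and 7.28, 6.88 and 6.53 to 12.1, 11.9 and 11.6 (1.12, adjusted p = 1.14e-08). Rsc1a1 had the largest fitted rise (2, SE 0.32, adjusted p = 0.000365), but its values were low and scattered, at 1.97, 4.04 and 4.19 in 8276KD, and 2 of the 3NC libraries list it at 0. Others rose from 3NC but stayed under 5NC, such as the growth factor gene Fgf18 (1.14 and -0.43) and the guidance cue gene Sema3d (1.09 and -0.49). Some falls brought 8276KD near 5NC, as for Ltbp1, a latency protein of TGF-beta (-1.67 and -0.05, the latter with adjusted p = 0.63).

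**Figure D5:**
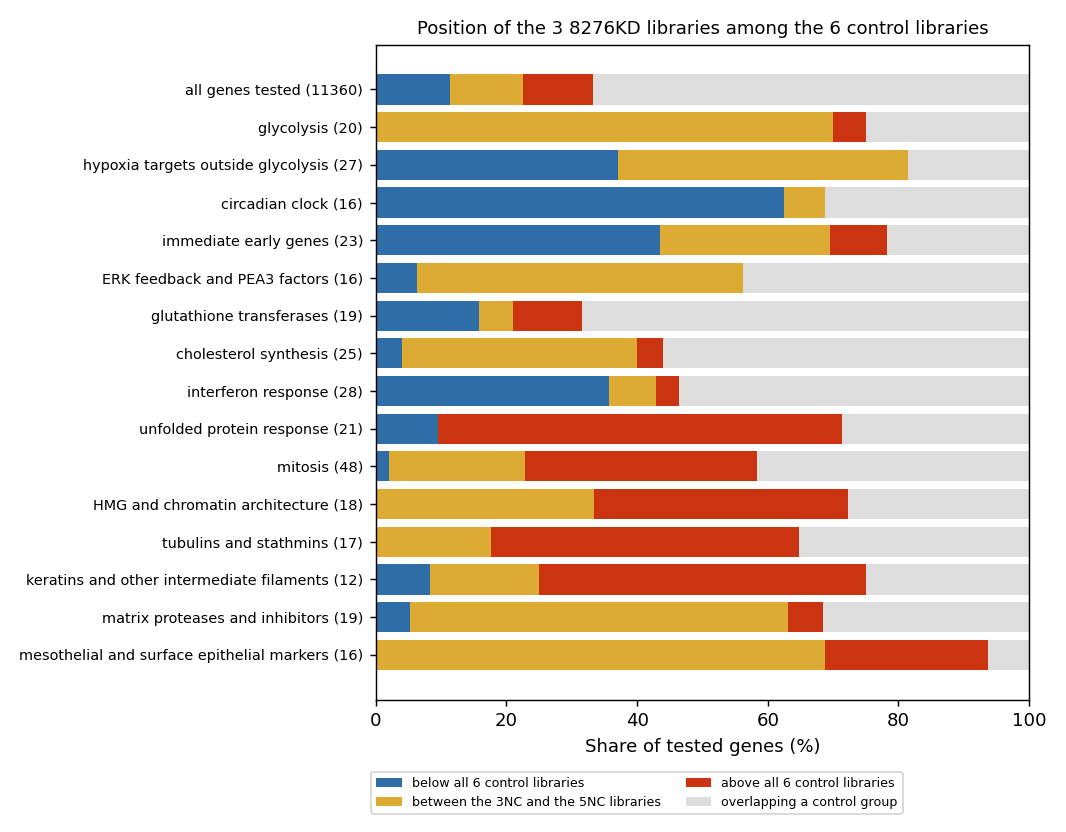
Share of the tested genes of each list, in percent, whose 3 8276KD values lie below all 6 control libraries, between the 3NC and the 5NC libraries, above all 6, or overlap a control group. Clock genes are mostly below both controls (62.5%), chaperones above both (61.9%), and glycolysis (70.0%) and surface epithelial genes (68.8%) mostly between.

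The effect of the knockdown was set against that of overexpression, each relative to its own control. The difference between the effects passed the threshold for 6885 genes (60.6%). Gsta1 was lower under knockdown (-2.65) and higher under overexpression (1.13), and the difference was called (adjusted p = 6.36e-10). The controls themselves differed for Gsta1, at 63.5, 65.0 and 67.9 for knockdown and 20.2, 17.1 and 20.8 for overexpression. The 8276OV values of 41.2, 47.8 and 41.3 lay between those of the controls. How far the opposite directions rest on the difference between the controls was not tested. Alpl fell under both knockdown and overexpression (-1.33 and -1.30) and the difference was not called (adjusted p = 0.903). Serpinf1 also fell in both (-1.34 and -1.11, adjusted p of the difference 0.0395). Stmn4 rose under knockdown (1.41) and was at 0.09 under overexpression (adjusted p of the difference 5.55e-06). The 8276OV libraries had GC slopes, relative to the mean of all 12 libraries, of -0.462 to -0.237 per 10 points, below all other groups. The part of base composition in these differences was not tested.

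Base composition moved with the knockdown effect to a smaller degree. With the genes split into 10 equal bins by transcript GC content, the median log2 difference went from 0.082 in the lowest bin (28.1% higher, 9.55% lower) to -0.096 in the highest (7.5% higher, 24.6% lower). After GC content was fitted and removed in each library, 18 of 20 glycolysis genes, 25 of 27 other hypoxia targets, 14 of 16 clock genes and 16 of 23 immediate early genes were lower, and 15 of 16 surface epithelial markers and 14 of 21 chaperone and unfolded protein response genes were higher. Without 8276KD replicate 2, the counts in the same order were 18, 25, 11, 16, 14 and 12.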

How the data were processed

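RNA sequencing of C18-4 cells gave 12 libraries in 4 groups of 3. The authors deposited 1 table of 17576 genes with a value per library, read here as FPKM from the values alone, since no source used here names the unit. The submitters' processing notes name the build mm10. The aligner, counter and annotation: not given in the sources used here. Without counts, depth was estimated from the lowest values (12000000 to 13600000 fragments). Values were taken as log2(value + 1) for the 11360 genes at 1 or more in at least 3 libraries. limma 3.58.1 (R 4.3.3) fitted group means over all 12 libraries, with trended, robust eBayes and Benjamini-Hochberg adjustment over all genes tested at 0.05. Adjusted p-values in the text are from this fit, and its script was tested on simulated data. The compared groups and gene lists were chosen with earlier results of these data known.

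Genes were named where they had the 20 largest called rises or falls with groups that do not overlap, the 10 largest changes in level, a change from near absence to presence or the reverse, or the smallest p in each list, beside set stem cell markers. The other list members named were chosen after their values were seen. Symbols that a spreadsheet had turned into dates (25) were not named, and some genes are not reported here. Promoters came from RefSeq (GRCm38.p6), and GC content was known for 98.6% of tested genes. Alternatives changed the pseudocount, filter, normalization, libraries in the fit, eBayes settings, replicate block, GC content and single libraries.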

Additional observations from a re-analysis of the deposited data

How the results depend on the processing

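No result for a named gene reversed. With a pseudocount of 0.1 in place of 1, 83 genes were higher and 124 lower by more than 1 on the log2 scale, against 28 and 64, since low genes then change more. The other counts over all genes tested stayed within 1.5 times. Called genes numbered 3780 with the filter at 5, 4254 with no filter, 4431 after quantile normalization, 4088 with the 6 compared libraries alone and 5418 after the GC correction. Leaving out 1 library gave 3428 to 5008 called genes, the highest without 8276KD replicate 2. A lone pair of libraries left in a group was fitted with the spread pooled over groups. With the replicate number as a block, 4434 genes were called (5281 together with the GC correction). The labels do not say that the numbers pair the libraries. Deviations from the group means of same-numbered 8276KD and 3NC libraries correlated at -0.00483, -0.181 and -0.153. Those of differently numbered libraries correlated at -0.122 to 0.195. Of 143 called genes named in the text, 139 stayed called under every alternative that tested them. Beside leaving out a library, Itgb1 was not called after quantile normalization, nor Hif1an and Pfkfb3 with the 6 libraries alone. Arntl, Egln2 and Msln were called after the GC correction, Arntl also with the replicate block (adjusted p = 0.0480) and with plain eBayes (0.0451), and Pgam1 after quantile normalization (0.0484). Counts within gene lists moved more. Beside the counts given with each list, 1 of 29 p53 targets rose with a pseudocount of 0.1, no filter or the 6 libraries alone. With the filter at 5, which tests fewer genes, 8 clock genes fell. Of 42 DNA replication genes, 8 fell without 3NC replicate 1 or 3 or 8276KD replicate 1, and 17 after the GC correction. Not all list counts that moved are given.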

Other observations

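Other groups of genes were described by counts only. Of 46 tested Rab GTPase genes 17 rose and 6 fell, and 10 or 11 rose without 3NC replicate 2 or 3 or 8276KD replicate 3. Of 15 genes of fatty acid synthesis 0 rose and 7 fell from 3NC, while 8 were higher and 2 lower than in 5NC. Of 20 YAP and TAZ targets 8 rose and 6 fell, and 3 fell without 8276KD replicate 1. Of 16 genes of BMP signalling and the Id family 4 rose and 1 fell.

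Calls were also counted by class of gene, beside 20% higher and 19.5% lower among all genes tested. On chromosome 19, 30.1% of tested genes were higher and 10.5% lower (median 0.060), and on chromosome 7, 11.8% were higher and 22.1% lower (median -0.068). Of 13 tested genes annotated as lncRNA, 0 were called higher and 5 lower (38.5%), beside 39.4% of all genes called in either direction. These genes are too few to read a difference of the class from the counts.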
